A study of Mus musculus with 3 samples.

Results

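The replication-dependent histone genes are the clustered genes that supply most histone protein while DNA is being copied. They were taken as every gene row whose symbol begins with Hist and a digit and that has a protein-coding transcript, by the symbols and transcript types of the deposited transcript table. This gave 67 of 55536 mouse genes, comprising 6 H1, 18 H2A, 18 H2B, 12 H3 and 13 H4 genes. All libraries were of 1 kind, C57BL/6J mouse bone-marrow-derived macrophages given 100 ng/ml Lipid A for 12 h, washed and left for 12 h, and given 100 ng/ml Lipid A again for 120 min. Lipid A is the part of bacterial lipopolysaccharide that anchors it in the membrane. Ribosomal RNA was depleted and total RNA of the cytosolic fraction was sequenced in 3 libraries labelled as biological replicates. All name the same donor record, which is the strain's, and whether separate mice or cultures were used is not stated, so the spread and the p-values may be technical. With 1 group there was no comparison between conditions.

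Core histones H2A, H2B, H3 and H4 wrap DNA into nucleosomes, and the linker histone H1 binds where DNA enters and leaves them. Messengers of replication-dependent histone genes are the metazoan mRNAs that normally end without a poly(A) tail, in a stem-loop bound by SLBP, and they are made mainly in S phase and degraded when replication stops. Ribosome-depleted libraries can hold such messengers, while selection for poly(A) would lose most of them. Macrophages cultured from bone marrow with growth factor divide, and mature macrophages can leave the cell cycle. In human differentiated cells some of these genes are known to make polyadenylated messengers as well; the presence of a tail was not measured here.

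Sequencing depth was 29376859 expected counts in replicate 1, 64822118 in replicate 2 and 37665844 in replicate 3. Levels below are TPM, a length-normalised abundance, as deposited, unless another scale is named. The deposited TPM were dominated by the signal recognition particle RNA genes Rn7s1 and Rn7s2, which took 60.4%, 63.3% and 57.9% in replicates 1, 2 and 3, and protein-coding genes held 32.5%, 26.5% and 27.1%. Libraries are therefore compared on CPM, read counts divided by the library's TMM-scaled depth, and genes are compared on TPM. The cells carried macrophage markers, with all 8 of 8 at 1 TPM or more in every library and a summed level between 4320 and 4497 TPM. Markers of T and NK cells, B cells, erythroid cells and fibroblasts summed to at most 0.07 TPM per list in any library, with Hba-a1 listed at 0 throughout. Of 4 neutrophil markers, S100a8 alone reached 1 TPM (2.62, 1.48 and 2.14 TPM), and the list summed to at most 2.74 TPM. In bulk RNA, fewer cells of a kind and less RNA per cell cannot be told apart.

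The histone genes lie on chromosome 13 (54 genes), 3 (10 genes), 11 (2 genes) and 6 (1 gene), and 62 of the 67 have a single exon in every protein-coding transcript. A stem-loop match of 16 bases, with 6 paired positions around a loop of 4, was found after the stop codon of 46 genes in GENCODE M21 transcripts. The sites below come from the highest genes of each class that hold a match, and from Hist1h4b, which shows other letters in the stem. Capitals mark the stem-loop.

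Hist2h2aa2: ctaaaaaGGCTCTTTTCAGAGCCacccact
Hist1h1c: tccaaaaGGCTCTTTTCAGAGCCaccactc
Hist3h2a: caccaaaGGCTCTTTTCAGAGCCacccaca
Hist2h2ac: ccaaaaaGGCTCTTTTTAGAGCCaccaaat
Hist1h2bg: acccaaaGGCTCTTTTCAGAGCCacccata
Hist1h3e: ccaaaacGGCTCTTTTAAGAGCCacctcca
Hist1h4m: aactaaaGGCCCTTTTCAGGGCCatc
Hist1h4h: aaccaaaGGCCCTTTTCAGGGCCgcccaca
Hist1h4b: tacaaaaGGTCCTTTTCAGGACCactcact

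These sites lie, on mm10 (GRCm38), at chr3:96239777-96239806 on the minus strand (Hist2h2aa2), chr13:23739505-23739534 on the plus strand (Hist1h1c), chr11:58955165-58955194 on the plus strand (Hist3h2a), chr3:96220411-96220440 on the minus strand (Hist2h2ac), chr13:23571836-23571865 on the plus strand (Hist1h2bg), chr13:23561896-23561925 on the minus strand (Hist1h3e), chr13:21812122-21812147 on the plus strand (Hist1h4m), chr13:23531451-23531480 on the plus strand (Hist1h4h) and chr13:23757359-23757388 on the plus strand (Hist1h4b). All are in 3′ untranslated regions, and that of Hist1h4m ends with the annotated transcript. The stem letters split by class. Each of the 12 H4 genes with a match had a C or T followed by CCT in the first strand of the stem (GGCCCT or GGTCCT), and each of the 34 matches in H1, H2A, H2B and H3 genes had GGCTCT. The commonest form, printed for Hist1h1c, was held by 26 genes, and that printed for Hist1h4h by 7. Over 58695 protein-coding transcripts, those of the histone genes included, 47 (0.0801%) had a match in their last 150 bases. Counted by gene, 24 of the 67 histone genes had such a match.

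In 22 genes the annotated transcript ended at most 60 bases past the stem-loop, and in 24 it ran on for more than 60. The other 21 genes had no match, and 13 of the 67 had no annotated base after the stop codon. The first kind summed to 142.0, 142.3 and 151.8 TPM in replicates 1, 2 and 3, or 49.6% of the histone TPM. The second kind summed to 74.4, 60.5 and 63.6 TPM, and the genes with no match to 85.8, 77.0 and 80.9 TPM. Few genes carried these sums. On means, Hist2h2aa1 and Hist2h2aa2 made 77.9 of the 145.3 TPM of the first kind. Hist1h2bc made 47.9 of the 81.2 TPM of genes with no match. The median gene stood at 2.54 TPM in the first kind, 1.15 in the second and 1.25 with no match. The annotated length enters TPM, so for genes whose real messenger is shorter or longer than the model the level is shifted accordingly. On the counts, where length is not divided out, the order was different. Transcripts that run on held 43.5% of the histone counts, those with no match 32.0% and those that end near the stem-loop 24.5%. Of the 17223 counts of transcripts that run on, Hist1h1c had 6470 and Hist3h2a 3947. Where reads fall along the models was not tested.

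The 67 genes together made 302.2, 279.7 and 296.3 TPM in replicates 1, 2 and 3, or 292.7 ± 11.7 (SD, n = 3). That was 0.0931%, 0.106% and 0.109% of the TPM of protein-coding genes. Of the 67, 37 (55.2%) reached 1 TPM in every library, against 39.1% of the 22028 protein-coding genes. The histone median was 1.27 ± 0.12 TPM and that of all protein-coding genes 0.12 ± 0.01 TPM. On the log2(TPM + 1) scale the medians were 1.18 and 0.16. The level was held by few genes. Hist2h2aa2, Hist1h2bc, Hist1h1c and Hist2h2aa1 made 53.2%, 50.4% and 47.4% of the histone TPM in replicates 1, 2 and 3, and the other 63 genes shared the rest. A level of 5 TPM in every library was reached by 13 genes, and 18 genes stayed under 1 TPM in every library.

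**Figure D1:**
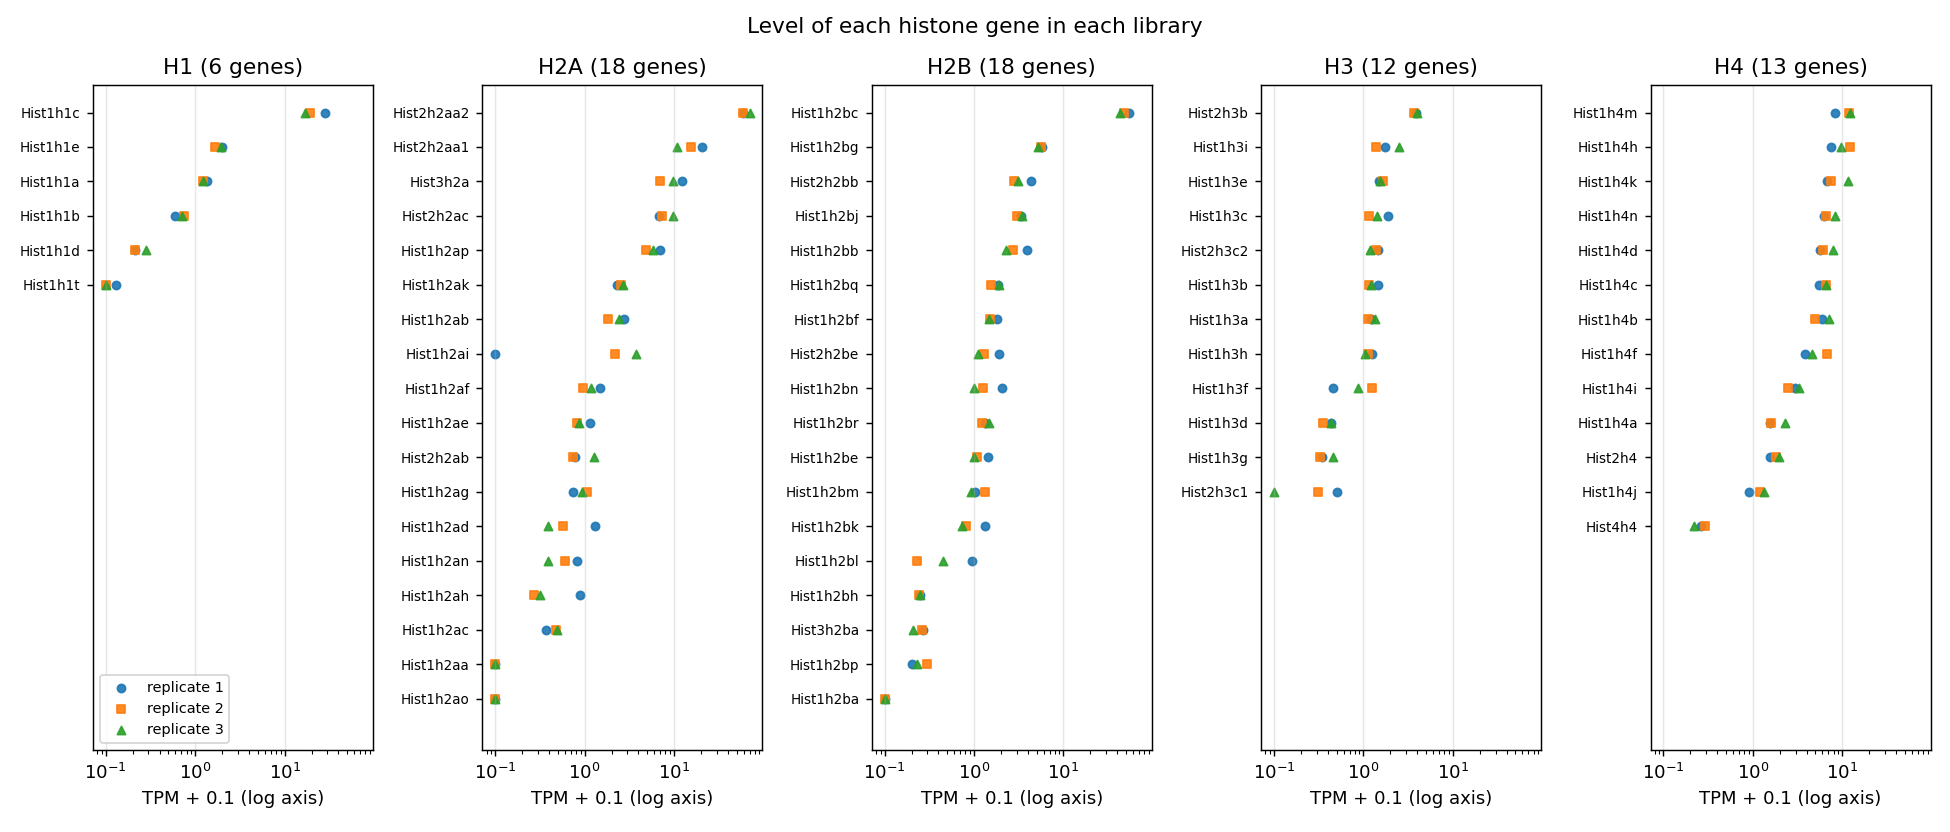
Level of each of the 67 histone genes in each of the 3 libraries, as TPM + 0.1 on a log axis, with a panel per class and genes ordered by mean TPM from top to bottom. A single gene stands far above its class in H1 (Hist1h1c, 21.6 TPM) and H2B (Hist1h2bc, 47.9 TPM), while 8 H4 genes lie between 4.93 and 10.7 TPM.

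By class, H2A genes summed to 116.1, 104.0 and 119.1 TPM in replicates 1, 2 and 3, H2B genes to 83.3, 71.0 and 66.2 TPM, and H4 genes to 55.6, 68.3 and 75.6 TPM. H1 genes summed to 32.3, 22.7 and 20.7 TPM, and H3 genes to 14.9, 13.7 and 14.8 TPM. H3 was lowest and H2A highest in every library, H1 stood above H3 in every library, and H2B and H4 changed places in replicate 3. Although each nucleosome holds equal numbers of the core histones, summed H2A TPM were 7.81 ± 0.20 times, and summed H4 TPM 4.61 ± 0.76 times, those of H3. On CPM, where length is not divided out, the order of means was H2B (100.1 ± 9.85 CPM), H2A (88.6 ± 2.97 CPM), H1 (58.9 ± 9.84 CPM), H4 (41.7 ± 8.37 CPM) and H3 (11.2 ± 1.16 CPM). H3 was therefore lowest on both scales, and the order of the others depended on whether length was divided out.

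**Figure D2:**
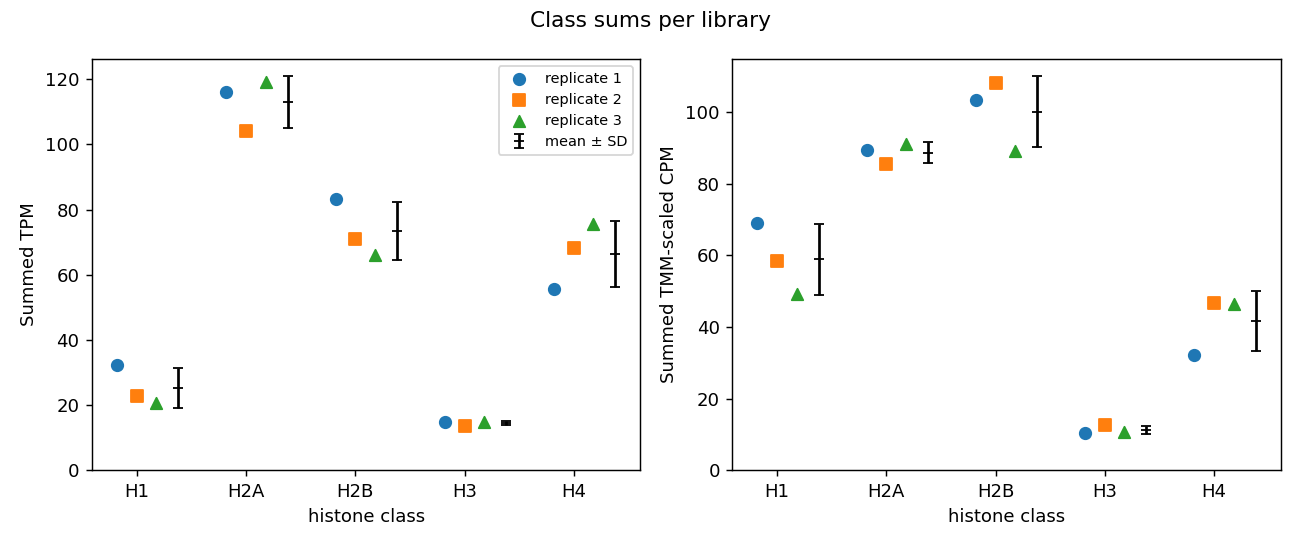
Summed level of each histone class per library, as TPM (left) and as TMM-scaled CPM (right), with the mean and SD over the 3 libraries beside the points. H3 is lowest on both axes (14.5 TPM, 11.2 CPM), and H4 is lowest in replicate 1 on both.

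Among the linker histones, Hist1h1c alone made 85.6% of the class. It stood at 28.5, 19.3 and 16.9 TPM, with 1761, 3143 and 1566 expected counts in replicates 1, 2 and 3 (ENSMUSG00000036181.2, mm10 chr13:23738808-23740367). Replicate 1 was highest on CPM too (61.1, 49.9 and 39.9 CPM). Hist1h1e followed at 1.88, 1.56 and 1.83 TPM, and Hist1h1a at 1.25, 1.11 and 1.12 TPM. Hist1h1b, with 0.583 ± 0.074 TPM, and Hist1h1d, with 0.133 ± 0.040 TPM, were under 1 TPM in every library. The Hist1h1d model is 7425 bases long, and its 36, 99 and 88 counts would give a higher TPM on a shorter one. Hist1h1t, the testis linker histone, had 1 count in replicate 1 and none in the other 2 libraries.

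H2A was carried by a pair of genes in an inverted repeat on chromosome 3 with identical coding sequence. Hist2h2aa2 stood at 58.6, 58.8 and 69.8 TPM (ENSMUSG00000063954.7, chr3:96239749-96240276, minus strand) and Hist2h2aa1 at 20.4, 15.3 and 10.7 TPM (ENSMUSG00000064220.6, chr3:96245497-96246082, plus strand). No word of 100 bases of either transcript was absent from all other genes, so the split between them is an estimate, and both overlap Gm genes on the opposite strand, Hist2h2aa1 also Gm20634 on its own strand. Their sum was steadier than either, at 79.0, 74.2 and 80.5 TPM, or 77.9 ± 3.31 TPM (SD, n = 3). Hist3h2a on chromosome 11 stood at 12.1, 6.85 and 9.58 TPM and Hist2h2ac at 6.66, 7.25 and 9.61 TPM. The model of Hist3h2a shares exon bases with Trim17 on its own strand, so reads of the pair can be confused. Hist1h2ap had 6.78, 4.79 and 5.75 TPM, while its copy Hist1h2ao, with identical coding sequence, was listed at 0 in every library. Hist1h2ak and Hist1h2ab were the remaining H2A genes over 1 TPM in every library, at 2.41 ± 0.21 and 2.23 ± 0.47 TPM.

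H2B was led by Hist1h2bc at 53.3, 47.5 and 43.0 TPM, with 2298, 5422 and 2771 expected counts, the highest count of any histone gene in each library (ENSMUSG00000018102.5, chr13:23684199-23692908). Its range did not overlap that of Hist2h2aa2. The annotated Hist1h2bc transcript is spliced, with 2 exons and 742 bases after the stop codon, and held no stem-loop match. Hist1h2bg followed at 5.59, 5.47 and 5.03 TPM, then Hist2h2bb at 4.19, 2.72 and 3.04 TPM, Hist1h2bj at 3.24, 2.90 and 3.38 TPM and Hist1h2bb at 3.79, 2.60 and 2.18 TPM. The ranges of Hist2h2bb, Hist1h2bj and Hist1h2bb overlapped each other and lay below that of Hist1h2bg. Hist1h2bf, Hist1h2bq, Hist1h2br and Hist2h2be were between 1.01 and 1.82 TPM in all libraries. Hist2h2be, another gene whose model had no match and runs on for 2192 bases after the stop codon, was unique over its whole length and had 201, 344 and 167 counts.

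The identical short transcripts of Hist1h2bq and Hist1h2br were each given 9.14, 23.7 and 15.5 counts in replicates 1, 2 and 3, an equal division that says nothing of the level of either gene. The longer spliced transcript of Hist1h2bq had 24.0, 37.1 and 27.9 counts. The testis-type genes Hist1h2ba and Hist1h2aa, which form a divergent pair, had 0 counts in every library, and 3 counts in replicate 2, the deepest, would have been 0.142 and 0.138 TPM. These limits cover counting error only.

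H3 genes were low. Hist2h3b stood at 3.75, 3.57 and 3.90 TPM, Hist1h3i at 1.66, 1.27 and 2.37 TPM, Hist1h3e at 1.40, 1.56 and 1.43 TPM and Hist1h3c at 1.78, 1.05 and 1.33 TPM. Hist2h3c2, Hist1h3b and Hist1h3a were between 1.02 and 1.36 TPM in every library. No H3 gene reached 5 TPM, and the range of Hist2h3b lay above that of every other H3 gene. Hist2h3b shares all of its words of 100 bases with other genes, and Hist2h3c1 and Hist2h3c2 have identical coding sequence. The sum of these copies was 5.52, 5.05 and 4.98 TPM. Hist2h3c1 itself was at 0.41 and 0.21 TPM in replicates 1 and 2 and listed at 0 in replicate 3, and in a second deposited quantification it was listed at 0 in all.

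H4 genes, which all encode the same protein in mouse, were spread over many loci rather than resting on a single gene. Of the 13, 11 reached 1 TPM in every library, and the class median of 5.85 TPM was the highest of the 5 classes. Hist1h4m stood at 8.29, 11.7 and 12.1 TPM, Hist1h4h at 7.39, 12.0 and 9.61 TPM, and Hist1h4k at 6.64, 7.40 and 11.5 TPM. The ranges of these genes overlapped. The Hist1h4k model is 312 bases long, and the TPM order did not hold on CPM. Hist1h4d and Hist1h4c had mean CPM of 10.4 and 6.53, against 4.36 for Hist1h4h, 3.53 for Hist1h4m and 1.53 for Hist1h4k. In the second deposited quantification Hist1h4k stood above Hist1h4m, with means of 6.38 and 4.86 TPM. Hist1h4n, Hist1h4d, Hist1h4c, Hist1h4b and Hist1h4f had means between 4.93 and 6.91 TPM, also with overlapping ranges, followed by Hist1h4i at 2.79 ± 0.40, Hist1h4a at 1.71 ± 0.41 and Hist2h4 at 1.68 ± 0.22 TPM (SD, n = 3 each). Hist1h4m and Hist1h4n have identical coding sequence and summed to 14.4, 18.2 and 20.2 TPM. Hist4h4, on chromosome 6, was lowest at 0.16, 0.19 and 0.12 TPM, with a model that runs on for 2445 bases past the stem-loop.

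Divergent neighbours share the stretch between their starts, and many differed in level. There were 12 pairs of an H2A and an H2B gene with starts at most 500 bases apart, and in 10 of them both genes had a mean above 0. In 8 of these 10 the libraries of the neighbours did not overlap on TPM, and in 5 they did not overlap on CPM either, with the same gene higher. The pair of Hist1h2ap and Hist1h2br is counted in both numbers. The Hist1h2br counts are an equal division with Hist1h2bq, and 7.83% of the Hist1h2ap words of 100 bases are unique. No difference between these neighbours can therefore be read. Hist1h2an and Hist1h2bp, apart on TPM only, had at most 11.0 counts in any library. Hist1h2bf and Hist1h2ad were also apart on TPM only. How often other pairs of genes are apart was not computed, so these numbers do not set divergent neighbours off from other genes. The TPM ranges of Hist1h2ah and Hist1h2bk, and of Hist1h2ai and Hist1h2bl, overlapped, and Hist1h2ak was 1.81 times Hist1h2bn. Hist1h2ac, 251 bases from Hist1h2bc, stood at 0.27, 0.38 and 0.39 TPM, and the mean of Hist1h2bc was 138 times higher. Hist2h2ac stood at 6.66, 7.25 and 9.61 TPM and its neighbour Hist2h2be, 239 bases away, at 1.82, 1.18 and 1.01 TPM, a ratio of means of 5.87. Hist1h2bg was at 5.59, 5.47 and 5.03 TPM and Hist1h2ae, 176 bases away, at 1.05, 0.73 and 0.76 TPM, a ratio of means of 6.33. The higher gene was the H2B gene in some pairs and the H2A gene in others. The models of Hist1h2ac (2482 bases) and Hist2h2be (2620 bases) are long, which lowers their TPM, and on CPM Hist1h2ac had 1.01, 1.65 and 1.56 against 79.7, 86.0 and 70.7 for Hist1h2bc. For Hist2h2ac and Hist2h2be the order turned on CPM, with 3.19, 4.28 and 5.03 for Hist2h2ac against 6.97, 5.46 and 4.26 for Hist2h2be, and the libraries overlapped, so the higher gene of this pair depended on dividing by length.

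**Figure D3:**
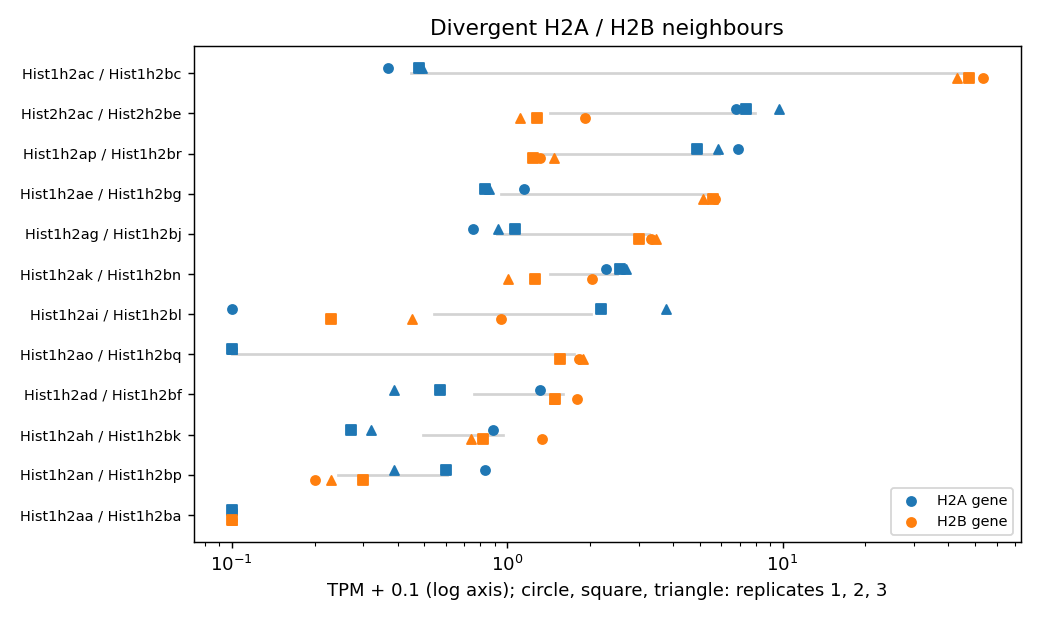
Levels of the 12 divergent pairs of an H2A gene (blue) and an H2B gene (orange) as TPM + 0.1 on a log axis, with a circle, square and triangle for replicates 1, 2 and 3 and a line between the means. The Hist1h2ac and Hist1h2bc pair is the most unequal of those with both genes above 0, at 0.347 and 47.9 TPM.

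The stretches between the starts of the pairs with the highest ratios are shown as RefSeq promoters (GRCm38.p6), from 250 bases before to 50 bases after the start. They are that of Hist1h2ac, shared with Hist1h2bc, at chr13:23683910-23684209 on the minus strand, and that of Hist1h2bg, shared with Hist1h2ae, at chr13:23571150-23571449 on the plus strand. Capitals mark the octamer ATTTGCAT, CCAAT and TATAAA on either strand.

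Hist1h2ac: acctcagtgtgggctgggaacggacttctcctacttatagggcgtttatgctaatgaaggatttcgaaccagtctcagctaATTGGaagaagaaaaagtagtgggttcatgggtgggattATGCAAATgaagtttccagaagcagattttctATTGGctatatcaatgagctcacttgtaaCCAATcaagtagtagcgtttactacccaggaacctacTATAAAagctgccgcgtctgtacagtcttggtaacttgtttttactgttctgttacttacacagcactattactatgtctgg
Hist1h2bg: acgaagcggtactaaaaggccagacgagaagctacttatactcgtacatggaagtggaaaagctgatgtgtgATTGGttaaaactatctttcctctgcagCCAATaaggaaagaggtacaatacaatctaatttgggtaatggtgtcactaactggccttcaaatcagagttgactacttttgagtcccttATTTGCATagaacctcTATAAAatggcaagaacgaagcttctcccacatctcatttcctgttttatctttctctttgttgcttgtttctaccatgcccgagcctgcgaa

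A promoter was found for 62 of the 67 genes. The octamer, the recognition letters of OCT factors, was in 7 of 18 H2A and 7 of 16 H2B promoters and in none of 28 H1, H3 and H4 promoters. Over all genes 1.97% of promoters held it, against 22.6% of the histone promoters. CCAAT, bound by NF-Y, was in every H1, H2A, H2B and H3 promoter and in 3 of 12 H4 promoters, and in 41.1% of all promoters. TATAAA was in 56.5% of the histone promoters and 15.7% of all. Promoters of divergent neighbours overlap, so a shared motif is counted for both where both have a promoter. No promoter was found for Hist1h2bc (47.9 TPM) or Hist2h2be. The octamers between them and their neighbours Hist1h2ac and Hist2h2ac are therefore counted for the H2A genes alone. The octamer was in the promoters of Hist3h2a (9.49 TPM), Hist1h2bg (5.36 TPM), Hist1h2ac (0.347 TPM) and Hist1h2ba, which was listed at 0, and in neither Hist2h2aa promoter.

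Near-identical copies limit how far single genes can be read. Words of 100 bases found in no other gene made up a median of 61.5% of a histone transcript, under 50% in 28 genes, none in 5 genes and all of them in 6. The deposited tables give a posterior SD of each count, the error of assigning shared reads. Summed over the libraries it was 1% of the count or less in 21 genes and over 10% in 12. It was 0.016% for Hist1h1c and 0.111% for Hist1h2bc, which are 94.9% and 74.6% unique. It was 1.70% for Hist2h2aa2, 5.92% for Hist2h2aa1, 41.9% for Hist2h3c1 and 49.7% for Hist1h2br. The leading H1 and H2B values therefore rest on reads assigned with little error, and those of Hist2h2aa2, Hist2h2aa1, Hist2h3c1 and Hist1h2br on the estimate of a split. For Hist2h2aa2 the SD was 38.4, 57.3 and 35.0 counts in replicates 1, 2 and 3, close to the 38.6, 57.7 and 34.05 of Hist2h2aa1. Besides copies, 7 histone genes share exon bases with another gene on their own strand and 21 with a gene on the opposite strand, and values of these are uncertain to that extent.

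**Figure D4:**
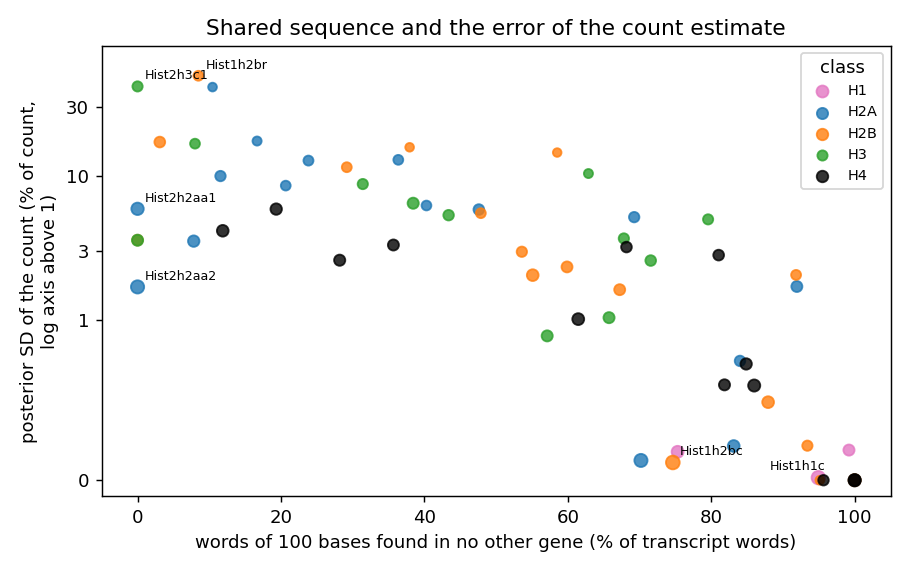
Posterior SD of the count of each histone gene with at least 10 counts in all (percent of the count, summed over the 3 libraries) against the share of its words of 100 bases found in no other gene, with colour for class and point size for the count. The SD is highest at low uniqueness, such as 41.9% for Hist2h3c1, and 0.016% for Hist1h1c at 94.9% unique.

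Differences between the libraries were tested with a chi-square test of rounded expected counts against TMM effective library sizes, adjusted by Benjamini-Hochberg over all 14568 genes that reached 10 counts in any library. Of 58 histone genes tested, 19 (32.8%) differed at an adjusted p under 0.05, against 72.0% of all genes tested. The histone genes had fewer counts, with a median total of 161 against 1333 for all genes tested, and a test on fewer counts finds smaller differences less often. The p-values set single libraries against counting error alone, and take no account of the spread that separate cultures or preparations have. Hist1h1c had the smallest adjusted p (1.37e-32), with replicate 1 highest at 61.1 CPM, then replicates 2 and 3 at 49.9 and 39.9 CPM. Hist3h2a also was highest in replicate 1 (37.1, 25.5 and 32.5 CPM, adjusted p = 1.54e-21). Hist1h2bc was highest in replicate 2 (79.7, 86.0 and 70.7 CPM, adjusted p = 1.56e-15). Hist2h2be had 6.97, 5.46 and 4.26 CPM (adjusted p = 2.88e-05). The large counts of Hist1h1c, Hist3h2a and Hist1h2bc make small differences detectable.

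The H4 genes were lower as a class in replicate 1. Of 13 H4 genes tested, 7 were called, against 72.0% of all genes tested. All 7, Hist1h4m, Hist1h4h, Hist1h4k, Hist1h4d, Hist1h4c, Hist1h4f and Hist2h4, were lowest in replicate 1. Over all genes, 3743 of the 10485 called were lowest there. Hist1h4k was not called by the same test in the second quantification (adjusted p = 0.244). Over all classes, 12 of the 58 tested histone genes were called and lowest in replicate 1, against 25.7% of all genes tested, and 6 were called and highest there, against 20.8%. Hist1h4d, which is unique over its length, had 8.05, 10.6 and 12.6 CPM (adjusted p = 3.37e-07), and Hist1h4h had 2.95, 5.93 and 4.18 CPM (adjusted p = 3.93e-09). H4 counts summed to 32.1, 46.8 and 46.4 CPM, a log2 ratio of -0.54 for replicate 1 over the mean of the others. For H1 that log2 ratio was 0.36, for H2A 0.02, for H2B 0.07 and for H3 -0.15. Copies share reads, so H4 genes are not independent of each other. Without replicate 1, 11 histone genes were called in place of 19, while the share over all genes tested was 57.1% in place of 72.0%, and of the 7 H4 genes Hist1h4h, Hist1h4d and Hist1h4f were called.

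A few abundant noncoding RNAs that lack a poly(A) tail were also lowest in replicate 1 on CPM. The share of such RNAs that were lowest there was not counted, and the H1, H2A and H2B sums were not lowest there. Rn7sk, the RNA of the 7SK particle, had 4604, 9865 and 13865 CPM and Rpph1, the RNA of RNase P, had 4032, 8256 and 7974 CPM. Rn7s1 and Rn7s2 summed to 86092, 116920 and 90651 CPM, while their share of the TPM was lowest in replicate 3. Replicate 1 also had the fewest counts in all. The part of these differences in the H4 values was not tested.

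**Figure D5:**
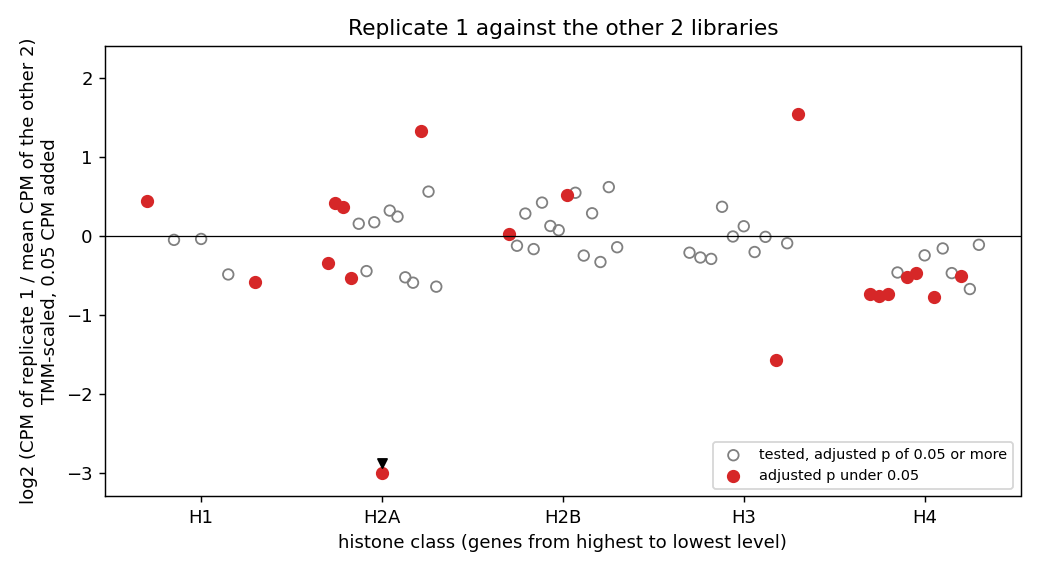
Log2 ratio of CPM in replicate 1 over the mean CPM of replicates 2 and 3 (0.05 CPM added) for the 58 tested histone genes by class, from the highest to the lowest mean TPM within a class. Filled points had an adjusted p under 0.05, and the black triangle marks Hist1h2ai, listed at 0 in replicate 1 of the gene table, with 17.8 counts in the second quantification, and drawn at the edge. All 13 H4 points lie below 0, and all 7 filled ones below -0.4.

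Some calls rest on copies. Hist1h2ai had 0, 46 and 44 expected counts in replicates 1, 2 and 3 (adjusted p = 5.26e-07), and 11.6% of its words of 100 bases are unique. In the second quantification it had 17.8, 71.2 and 62.2 counts, so the 0 in replicate 1 was not found there. Hist2h2aa2 (28.7, 35.7 and 37.5 CPM) and Hist2h2aa1 (11.9, 11.0 and 6.84 CPM) were called with opposite orders of libraries. Hist2h3c1, with 30.4, 41.5 and 0 counts, and Hist1h2ad, with 20, 20 and 7 counts, were no longer called when the posterior SD was added to the counting error (adjusted p = 0.259 and 0.0510). Hist1h3f had 0.590, 2.32 and 1.40 CPM (adjusted p = 1.84e-08), Hist2h2ac 3.19, 4.28 and 5.03 CPM (adjusted p = 0.00243), and Hist1h1d 1.25, 1.57 and 2.24 CPM (adjusted p = 0.00685). In the main test and every alternative, 7 histone genes were called: Hist1h1c, Hist1h2bc, Hist3h2a, Hist2h2be, Hist1h3f, Hist1h4h and Hist1h4d. That group holds genes of every class and no pair of identical copies. The share of all genes called in every setting was not computed, so the 7 cannot be set against it. Single alternatives called between 50.3% and 82.9% of all genes tested.

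Replication-independent variants, whose genes have introns or polyadenylated messengers and are expressed outside S phase, were set beside these genes. The 11 found of 12 listed summed to 784.3, 543.7 and 585.3 TPM, and the replication-dependent genes made 0.469 ± 0.072 times that sum. H3 variants made most of the sum. H3f3a, at 339.9, 223.6 and 250.3 TPM, and H3f3b, at 318.5, 226.9 and 238.3 TPM, both encode the variant deposited outside replication, and together they were 36.7 ± 6.47 times the 12 H3 genes. For H2A the variants H2afz, H2afv, H2afx, H2afy and H2afj summed to 84.4 ± 12.3 TPM, or 0.747 ± 0.094 times the 18 H2A genes. Among linker histones, Hist1h1c stood at 21.6 ± 6.13 TPM and H1f0, the variant of differentiated cells, at 19.6 ± 5.55 TPM. Their ranges overlapped, with Hist1h1c higher within each library. H1f0 had 26.0, 16.3 and 16.6 TPM in replicates 1, 2 and 3, against 28.5, 19.3 and 16.9 for Hist1h1c. On CPM H1f0 was the higher in each library (76.3, 57.6 and 53.6 against 61.1, 49.9 and 39.9). Cenpa, the centromeric H3, stood at 0.873 ± 0.050 TPM and H2afx, marked at DNA breaks, at 2.99 ± 0.12 TPM.

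Of 18 genes found for making and processing histone messengers, 16 reached 1 TPM in every library, with a list median of 7.01 ± 0.62 TPM. Slbp, which binds the stem-loop, stood at 7.22, 5.43 and 5.53 TPM. Cpsf3, the endonuclease that cuts histone pre-mRNA, stood at 9.64 ± 0.65 TPM, its partners Cpsf2 and Sympk at 8.65 ± 1.24 and 18.6 ± 0.57 TPM, and the U7 particle proteins Lsm10 and Lsm11 at 12.9 ± 1.49 and 0.700 ± 0.089 TPM. Npat, the coactivator of histone transcription, stood at 1.98 ± 0.21 TPM and its locus body partner Casp8ap2 at 1.95 ± 0.30 TPM. Genes of histone messenger decay were present too, with Upf1 at 9.06 ± 0.75, Eri1 at 4.93 ± 0.48 and Tut7 at 34.1 ± 7.79 TPM. Zfp473, a zinc finger protein of the processing complex, was at 0.04 and 0.02 TPM in replicates 1 and 3 and listed at 0 in replicate 2. The chi-square test called 12 of the 17 tested, against 72.0% of all genes tested.

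Of 14 chaperone and supply genes, 12 reached 1 TPM in every library, with a list median of 8.51 ± 0.91 TPM. Daxx, which with Atrx deposits the H3f3a and H3f3b product, stood at 79.5, 45.0 and 48.0 TPM and Hat1, which acetylates new H4, at 24.3 ± 6.19 TPM. Asf1a stood at 4.39 ± 0.08 TPM and its paralogue Asf1b, which is tied to proliferation, at 1.01 ± 0.20 TPM. Chaf1a and Chaf1b, subunits of the assembly factor that works at replication forks, stood at 0.550 ± 0.046 and 2.22 ± 0.37 TPM. Of 23 S-phase genes, 16 reached 1 TPM in every library, with a list median of 2.17 ± 0.10 TPM. Pcna, the replication clamp, was highest at 71.2, 57.5 and 56.8 TPM, and the helicase subunits Mcm2 to Mcm7 lay between 1.48 and 8.39 TPM in the libraries. Rrm2, Tk1, Cdc45, Ccne2 and Cdc6 had means between 0.217 and 0.803 TPM. Both lists were described over all tested members, with 9 of 14 and 14 of 23 called, against 72.0% of all genes tested.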

How the data were processed

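Cytosolic total RNA (1 µg, size range 250 to 400 per the labels) was sequenced. Per the file headers, the authors' gene table and first transcript table of each library hold expected counts, TPM and a posterior SD of the count. The authors' other transcript table holds estimated counts and TPM, again per the file headers, and is called the second quantification after summing per gene. The labels name assembly mm10. For the aligner, quantifiers and strandedness, the entry is: not given in the sources used here. Reads of genes that overlap on either strand may be confused. Rows that name no mouse gene held 0.350%, 0.169% and 0.168% of the counts in replicates 1, 2 and 3 and were left out of library sizes and tests.

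Members and lists were chosen with earlier results of these data known. Expected counts were rounded for TMM scaling (edgeR 4.0.16) and the DESeq2 1.42.0 size factors. The chi-square test was checked on simulated counts. Scripts ran in R 4.3.3 and in Python 3.11.15 with scipy 1.17.1, pandas 2.3.3, matplotlib 3.10.9 and numpy 2.4.6. Promoters are from RefSeq and transcripts from GENCODE M21, as no genome was used. Genes named are the 4 highest of each class, those at 1 TPM or more in every library, those called, any over 2-fold apart between quantifications, and list members; others were chosen after their values were seen. The alternatives were the second quantification, rescaled TPM, CPM with either scaling, limits of 0.1 and 5 TPM or 10 counts, a pseudocount of 0.1 in place of 1, filters on low counts and leaving out each library. The second quantification rescaled, rescaled total TPM and the posterior SD added to the counting error were chosen after seeing the data. Some genes that these rules name are not reported here.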

Additional observations from a re-analysis of the deposited data

How the results depend on the processing

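The sum over the 67 genes moved with what TPM is taken over. It was 141.4 in the second quantification and 1000.5 when TPM were rescaled to sum over coding plus long noncoding genes alone. For H1, H2A, H2B, H3 and H4, class sums were 11.4, 54.1, 35.0, 7.16 and 33.7 TPM in the second quantification. They were 84.97, 386.4, 249.8, 49.5 and 229.8 on rescaled TPM, and 78.6, 371.2, 239.9, 49.2 and 230.4 in the second quantification rescaled. In CPM they were 58.9, 88.6, 100.1, 11.2 and 41.7 with TMM and 58.9, 88.6, 100.1, 11.2 and 41.7 with DESeq2 size factors. The share of protein-coding TPM was 0.103% and in the second quantification 0.10%. After rescaling, no histone gene with a mean of 1 TPM or more was over 2-fold apart between the quantifications in all 3 libraries. The 37 genes at 1 TPM or more in every library became 61 at 0.1 TPM, 13 at 5 TPM, 51 at 10 expected counts, 51 on rescaled TPM and 23 in the second quantification. The median of 1.18 on the log2(TPM + 1) scale became 0.45 with a pseudocount of 0.1 and 1.36 over genes with at least 10 counts in 1 library. The main test called 19 histone genes, 32.8% of those tested, against 72.0% of all genes tested. They became 11 to 21 when a library was left out. They were 11, 21 and 16 without replicates 1, 2 and 3, where 57.1%, 52.7% and 54.0% of all genes were called. They were 20 with DESeq2 size factors (71.8% of all genes), 24 in the second quantification (82.9%), 19 with no filter (50.3%) and 17 with the posterior SD added (69.8%). No paired analysis was possible because the labels give 1 group. Depth limits genes of few counts, and 9 of the 67 were too low to test.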
